A study of Mus musculus with 4 samples.

Results

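The 10 genes described here encode receptors of the tumor necrosis factor (TNF) superfamily that are known on regulatory T (Treg) cells, together with a pair of their intracellular adaptors. They were chosen by symbol out of the 24087 genes measured, and comprise 8 receptors (Tnfrsf18, Tnfrsf4, Tnfrsf9, Tnfrsf1b, Tnfrsf1a, Tnfrsf25, Cd27 and Fas) and 2 adaptors of the TNF receptor-associated factor (TRAF) family (Traf1 and Traf2). RNA-seq was performed on Treg cells sorted as CD3+CD4+YFP+ from the spleen of C57BL/6 mice at steady state. The mutant group was Foxp3Cre-YFPSetd2f/f (KO) and the control group was Foxp3Cre-YFPSetd2f/+ littermates (CTRL), with 2 libraries per group, each from cells pooled from 2 mice. Both groups carried Cre fused to YFP under the control of Foxp3, the gene that defines the Treg lineage, and CTRL also carried a floxed Setd2 allele, so CTRL cells were not wild type. Setd2 encodes the methyltransferase that trimethylates lysine 36 of histone H3 (H3K36me3) in gene bodies. The labels gave neither age nor sex for these libraries. Values are FPKM, the fragments counted for a gene divided by its length and by the sequencing depth, so that levels can be compared per length between genes.

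Receptors of the TNF superfamily are bound by trimeric ligands, most of them on the surface of other cells. Receptors without a death domain bind TRAF adaptors, which lead to the activation of NF-kB and to survival and proliferation, whereas death domain receptors such as Fas can also start caspase-dependent cell death. Treg cells are known to display GITR, OX40 and TNFR2 at high levels, and signals through these receptors promote the thymic maturation, expansion and survival of Treg cells.

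The recovered depth was similar among the libraries, from at least 30578092 reads in CTRL 1 to at least 33186372 in KO 2. CTRL 1 stood apart in having 19100 genes above 0, compared with 15913 to 16410 in the other libraries, and results without it are given where a change was called. Setd2 itself was at 23.4 and 25.3 FPKM in the CTRL libraries and at 21.3 and 19.5 FPKM in the KO libraries, with a log2 fold change of -0.24 and an adjusted p of 0.0970 (limma). The floxed exons were not analysed separately here. For Treg cells of this mutant genotype, the paper reported loss of Setd2 protein by flow cytometry and a strong fall of H3K36me3 by western blot. Markers of the sorted cell type were present, with Foxp3 between 112 and 140 FPKM and Cd4 between 268 and 299 FPKM. None of the 6 T and Treg cell markers passed the threshold between KO and CTRL. At an unadjusted p under 0.05 (limma), Il2ra was lower in KO (log2 fold change -0.35) and Ikzf2 was higher (0.17). Foxp3 and Cd4 were lower in both KO libraries than in both CTRL libraries, with log2 fold changes of -0.17 and -0.10. Markers of other cells were present in all libraries. The summed level of 5 myeloid markers was 198 and 126 FPKM in CTRL 1 and CTRL 2 and 235 and 100 FPKM in KO 1 and KO 2, and that of 4 B cell markers was 21.6 and 18.2 FPKM in CTRL and 31.3 and 18.3 FPKM in KO. Both were higher in replicate 1 of either group and the groups overlapped. The summed level of 2 plasma cell markers was 36.1 and 13.7 FPKM in CTRL and 41.5 and 15.6 FPKM in KO, and that of 3 erythroid markers 12.2 and 2.22 FPKM in CTRL and 19.9 and 5.02 FPKM in KO, with Hbb-bs listed at 0 in all libraries but KO 1. The levels for 2 NK cell markers lay between 2.14 and 2.56 FPKM, for 2 CD8 T cell markers between 8.49 and 11.4 FPKM and for 3 dendritic cell markers between 2.79 and 4.16 FPKM. None of these markers of other cells passed the threshold between KO and CTRL, and 1 had an unadjusted p under 0.05, the B cell gene Cd79b, at 10.9 and 12.8 FPKM in CTRL and 16.0 and 13.7 FPKM in KO.

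To see how loss of Setd2 affected this receptor family, KO was compared with CTRL by limma on log2(FPKM + 1). All 10 genes passed the filter of at least 1 FPKM in at least 2 libraries. Fold changes are differences of KO minus CTRL on that log2 scale, given with their standard error (SE), and p was adjusted over all 11399 genes tested by Benjamini-Hochberg with a threshold of 0.05. Tnfrsf4, Tnfrsf9 and Tnfrsf1b were higher in KO, and these are 3 of the 10 genes, compared with 5.1% of all genes tested. The 10 genes were chosen with earlier results of these data known, so the comparison of shares is a description only. None of the 10 genes was called lower, compared with 4.65% of all genes, and 9.75% of all genes were called in either direction. At an unadjusted p under 0.05, 5 of the genes were higher and 1, Tnfrsf25, was lower, and 34.7% of all genes reached this in either direction. Both KO libraries lay above both CTRL libraries for 5 of the 10 genes and below them for 4, and only Tnfrsf18 overlapped, but the groups did not overlap for 64.5% of all genes either. The median log2 fold change was 0.13 over the 10 genes and -0.02 over all genes tested. The changes were small, with log2 fold changes between -0.30 and 0.38. The p-values rest on 2 pooled libraries per group, with the variance of each gene drawn by limma toward a trend over all genes tested. They therefore do not measure the spread of these libraries alone, and without that trend 0 of the 10 genes passed. In bulk RNA, a change in the share of cells that express a gene and a change in RNA per cell cannot be told apart.

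**Figure D1:**
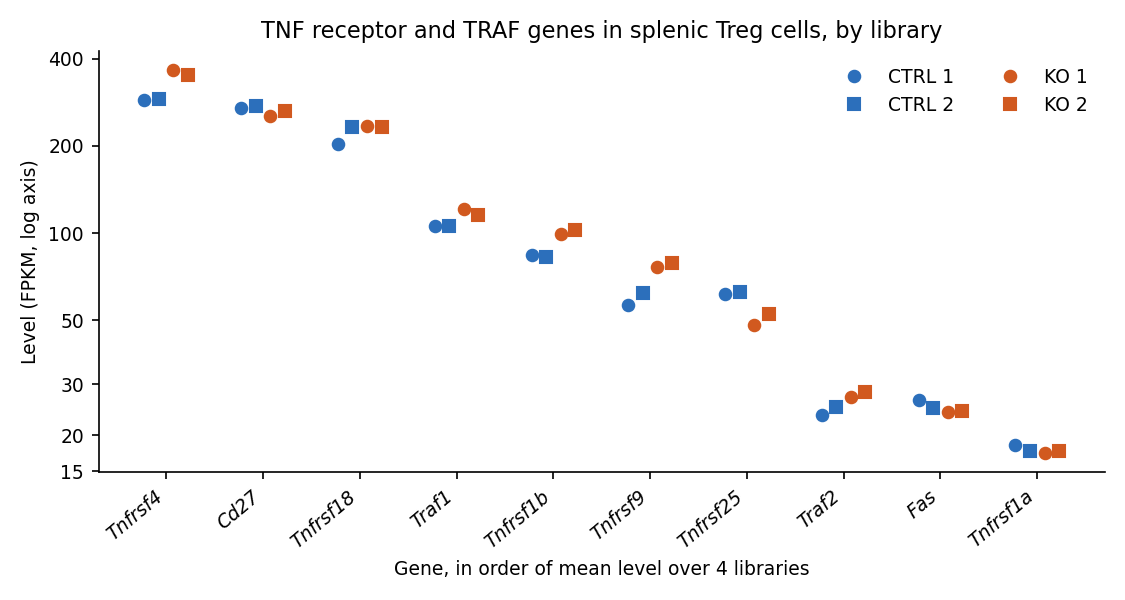
FPKM of each of the 8 receptors and 2 TRAF adaptors in the 4 libraries, with 1 point per library, CTRL in blue and KO in orange, on a log axis and in the order of the mean level. Tnfrsf4, Tnfrsf9 and Tnfrsf1b lie higher in both KO libraries, Tnfrsf25 lies lower in both, and the CTRL and KO points of Tnfrsf18 overlap.

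**Figure D2:**
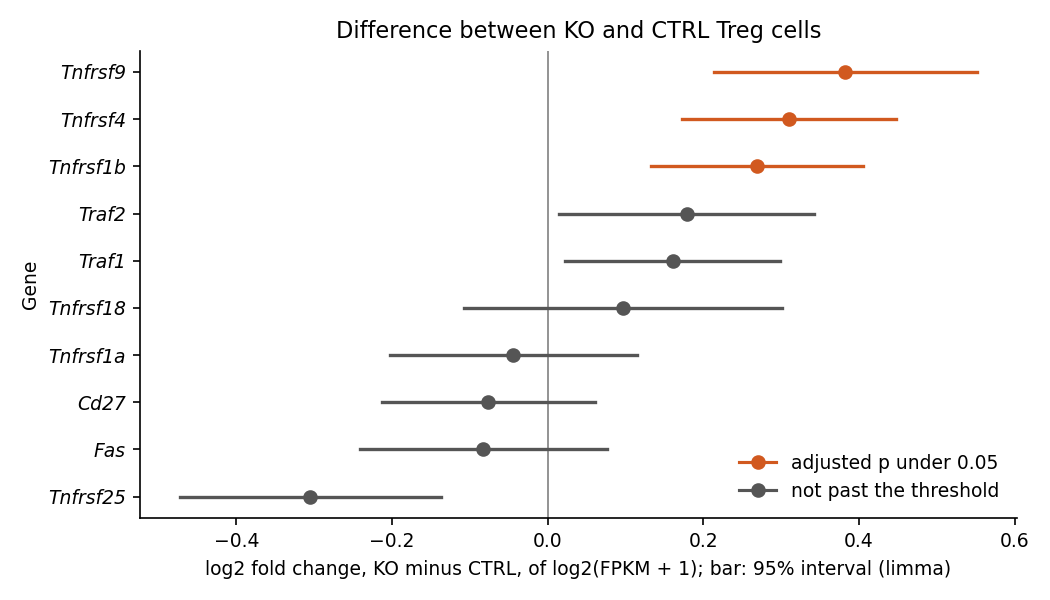
Log2 fold change (KO minus CTRL, log2(FPKM + 1) scale) of the 10 genes from the limma fit, with 95% confidence intervals from 2 libraries per group. Tnfrsf9 (0.38), Tnfrsf4 (0.31) and Tnfrsf1b (0.27) are past the adjusted threshold, and Tnfrsf25 (-0.30) lies just outside it.

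Because 5 of the 10 genes lie on chromosome 4 and some of them gave opposite values, the sequences upstream of the genes with the highest and lowest fold changes are shown. The windows hold 250 bases before and 50 bases after a transcription start of RefSeq on GRCm38.p6, 5′ to 3′ on the strand of the gene. All 10 genes matched, with 12 windows in total, since Tnfrsf9 and Tnfrsf25 have 2 starts each. The RefSeq start of Tnfrsf4 lies upstream of the GENCODE gene start given for it here. Capitals mark matches, on either strand and overlapping where they run together, to the kappa B consensus bound by NF-kB, the AP-1 motif TGAGTCA, the Runx motif TGTGGT, the GC box GGGCGG and the TATA motif TATAAA. The windows are chr4:156013445-156013744 (Tnfrsf4, plus strand), chr4:150927749-150928048 (the downstream start of Tnfrsf9, plus strand), chr4:145246821-145247120 (Tnfrsf1b, minus strand) and chr4:152115684-152115983 (the upstream start of Tnfrsf25, plus strand).
Tnfrsf4: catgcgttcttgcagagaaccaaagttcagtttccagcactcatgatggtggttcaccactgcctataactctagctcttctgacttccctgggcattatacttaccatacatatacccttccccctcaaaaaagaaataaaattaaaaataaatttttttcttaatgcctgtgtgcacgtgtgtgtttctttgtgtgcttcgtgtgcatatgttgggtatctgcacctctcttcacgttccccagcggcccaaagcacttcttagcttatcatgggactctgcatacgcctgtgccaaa
Tnfrsf9: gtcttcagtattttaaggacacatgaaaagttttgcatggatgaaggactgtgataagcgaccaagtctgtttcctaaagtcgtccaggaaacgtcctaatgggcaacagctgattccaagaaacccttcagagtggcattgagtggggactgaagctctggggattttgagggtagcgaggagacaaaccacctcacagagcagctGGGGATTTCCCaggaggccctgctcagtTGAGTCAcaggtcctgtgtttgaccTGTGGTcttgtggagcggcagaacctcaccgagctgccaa
Tnfrsf1b: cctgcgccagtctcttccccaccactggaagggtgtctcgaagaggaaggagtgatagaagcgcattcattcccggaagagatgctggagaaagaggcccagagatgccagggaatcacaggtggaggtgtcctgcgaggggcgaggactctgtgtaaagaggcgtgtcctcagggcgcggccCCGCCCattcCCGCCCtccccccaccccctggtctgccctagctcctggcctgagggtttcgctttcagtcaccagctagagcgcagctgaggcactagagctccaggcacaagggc
Tnfrsf25: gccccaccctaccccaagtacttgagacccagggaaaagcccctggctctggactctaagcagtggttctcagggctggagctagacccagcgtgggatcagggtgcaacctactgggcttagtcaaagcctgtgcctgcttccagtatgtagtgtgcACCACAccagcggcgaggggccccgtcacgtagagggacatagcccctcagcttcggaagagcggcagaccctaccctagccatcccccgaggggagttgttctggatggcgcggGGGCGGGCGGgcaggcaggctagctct

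None of the 5 motifs occurred in the Tnfrsf4 window. The Tnfrsf9 window held overlapping kappa B matches 43 and 42 bases before the start, TGAGTCA 15 bases before it and TGTGGT after it. The Tnfrsf1b window held GGGCGG on the reverse strand at 57 and 67 bases before the start, and the Tnfrsf25 window held TGTGGT on the reverse strand and a pair of overlapping GGGCGG matches after the start. The kappa B consensus was found in 2 of the 12 windows, at the downstream starts of Tnfrsf9 and Tnfrsf25, and in 8.46% of all 32851 promoter windows. The downstream window of Tnfrsf25, which is not printed, held a match 28 bases before the start and another after it. Both genes lacked the consensus at their upstream starts, so the printed windows of these genes differ in it through the start shown. Of the 12 windows, 2 held TGAGTCA, 3 TGTGGT, 5 GGGCGG and 0 TATAAA, compared with 5.2%, 16.8%, 35.7% and 13.6% of all windows. A match is a description of the letters only.

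The levels were read by role, beginning with the co-stimulatory receptors. Tnfrsf4 (ENSMUSG00000029075, chromosome 4, 156013843 to 156016612, plus strand, GRCm38) encodes OX40, a receptor for OX40 ligand on antigen-presenting cells that supports survival of activated T cells. It was the most abundant of the 10 genes, at 288 and 291 FPKM in CTRL 1 and CTRL 2, against 366 and 352 FPKM in KO 1 and KO 2. Both KO libraries lay above both CTRL libraries, and the gap between the groups, 0.27 on the log2 scale, exceeded the difference between the KO libraries of 0.057. The CTRL mean of 289 ± 1.89 FPKM rose to 359 ± 9.99 FPKM in KO (SD, n = 2 per group), which is 1.24-fold, with a log2 fold change of 0.31 (SE 0.054) and an adjusted p of 0.0402. Among all genes tested, 88.5% had a lower fold change.

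Tnfrsf9 (ENSMUSG00000028965, chromosome 4, 150914562 to 150946102, plus strand) encodes CD137, an activation-induced receptor that binds the ligand encoded by Tnfsf9. It was at 56.6 and 62.0 FPKM in the CTRL libraries and at 76.4 and 78.6 FPKM in the KO libraries. Its KO libraries were the closer pair, and each lay above both CTRL libraries. The CTRL mean of 59.3 ± 3.85 FPKM rose to 77.5 ± 1.51 FPKM in KO (SD, n = 2 per group), or 1.31-fold, the highest ratio among the 10 genes. This gave a log2 fold change of 0.38 (SE 0.066) and an adjusted p of 0.0400. The gene overlaps Camta1 on the other strand, but Camta1 was at 0.508 to 0.640 FPKM in the 4 libraries, far below Tnfrsf9.

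Tnfrsf18 (ENSMUSG00000041954, chromosome 4, 156026164 to 156028895, plus strand) encodes GITR, a receptor that is displayed at high density on Treg cells. It is the direct neighbor of Tnfrsf4, with 9551 bases between the genes on the same strand. It stood at 203 and 233 FPKM in CTRL 1 and CTRL 2, against 234 and 232 FPKM in KO 1 and KO 2. CTRL 1 was the low library, and CTRL 2 lay between the KO libraries. Its log2 fold change was 0.10 (SE 0.080, 95% confidence interval -0.11 to 0.30) with an adjusted p of 0.436. The direction was not stable, with a log2 fold change of -0.0019 without CTRL 1 and -0.027 after quantile normalization. The interval of Tnfrsf18 overlaps that of Tnfrsf4, and whether these neighbors differ in their response was not tested.

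Cd27 (ENSMUSG00000030336, chromosome 6, 125232622 to 125237010, minus strand) encodes the receptor for CD70 and is expressed on most resting T cells. It was at 270 and 276 FPKM in the CTRL libraries and at 254 and 264 FPKM in the KO libraries, so that the KO libraries were the lower pair, by a narrow margin of 0.036 on the log2 scale. The log2 fold change was -0.08 (SE 0.053, 95% confidence interval -0.21 to 0.06) with an adjusted p of 0.362. After quantile normalization the difference was -0.20, with an adjusted p of 0.0638. The gene overlaps Vamp1 on the other strand, and 1.19% of the 100-base stretches of its exons also occur in another gene, compared with 0% for each of the other 9 of the 10 genes. Vamp1 was at 15.3 and 14.4 FPKM in CTRL, against 9.31 and 11.0 FPKM in KO, and was called lower (log2 fold change -0.51, adjusted p 0.0424). The sources used here do not give the strand setting of the counting, so reads of Cd27 and Vamp1 may have been shared and the value of Cd27 is uncertain to that extent.

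The receptors for TNF itself were then compared. Tnfrsf1b (ENSMUSG00000028599, chromosome 4, 145213463 to 145246870, minus strand) encodes TNFR2, which has no death domain and drives expansion of Treg cells. It stood at 84.2 and 82.7 FPKM in CTRL 1 and CTRL 2, against 98.9 and 103 FPKM in KO 1 and KO 2. Both groups were tight and did not overlap. The CTRL mean of 83.5 ± 1.10 FPKM rose to 101 ± 2.76 FPKM in KO (SD, n = 2 per group), or 1.21-fold, with a log2 fold change of 0.27 (SE 0.053) and an adjusted p of 0.0450. Myeloid cells are also known to express this gene. The library with more summed myeloid markers had the higher Tnfrsf1b in CTRL (CTRL 1) and the lower Tnfrsf1b in KO (KO 1), and the part of myeloid RNA in the result was not tested.

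Tnfrsf1a (ENSMUSG00000030341, chromosome 6, 125349362 to 125362484, plus strand) encodes TNFR1, the death domain receptor for TNF. It was the least abundant of the 10 genes, at 18.4 and 17.7 FPKM in CTRL, against 17.3 and 17.7 FPKM in KO. The groups were separated by only 0.0045 on the log2 scale. With a log2 fold change of -0.04 (SE 0.062, 95% confidence interval -0.20 to 0.11), its adjusted p was 0.654. Tnfrsf1b exceeded Tnfrsf1a by 4.57 and 4.67 times in FPKM in the CTRL libraries and by 5.70 and 5.82 times in the KO libraries, and of the pair only Tnfrsf1b was called.

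The remaining receptors also carry a death domain. Tnfrsf25 (ENSMUSG00000024793, chromosome 4, 152115934 to 152120119, plus strand) encodes DR3, the receptor for TL1A, whose stimulation expands Treg cells. It stood at 61.7 and 62.7 FPKM in CTRL 1 and CTRL 2, against 47.9 and 52.5 FPKM in KO 1 and KO 2. Each KO library was below each CTRL library, by a gap of 0.23 on the log2 scale, and the KO libraries differed by 0.13. The mean was 62.2 ± 0.657 FPKM in CTRL and 50.2 ± 3.21 FPKM in KO (SD, n = 2 per group), a ratio of 0.807. The log2 fold change was -0.30 (SE 0.065, 95% confidence interval -0.47 to -0.14), but the adjusted p of 0.0512 did not pass the threshold. Under 10 other settings of the fit, the adjusted p ran from 0.0346 to 0.101 and was under the threshold in 6.

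Fas (ENSMUSG00000024778, chromosome 19, 34290666 to 34327772, plus strand) encodes the receptor of Fas ligand, which limits T cell numbers through caspase-8. It was at 26.4 and 24.8 FPKM in CTRL, against 24.0 and 24.3 FPKM in KO. The KO libraries lay just below CTRL 2. The log2 fold change was -0.08 (SE 0.062, 95% confidence interval -0.24 to 0.08) with an adjusted p of 0.395.

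Of the adaptors, Traf1 (ENSMUSG00000026875, chromosome 2, 34941750 to 34961772, minus strand) is itself induced by NF-kB and binds to TNFR2 and CD137 together with TRAF2. It was at 105 and 106 FPKM in the CTRL libraries and at 121 and 115 FPKM in the KO libraries. Traf2 (ENSMUSG00000026942, chromosome 2, 25517982 to 25546940, minus strand), whose product recruits cellular inhibitors of apoptosis to the receptors, was at 23.6 and 25.0 FPKM in CTRL, against 27.1 and 28.2 FPKM in KO. For both genes, both KO libraries lay above both CTRL libraries. In the limma fit, the log2 fold change was 0.16 (SE 0.054, unadjusted p 0.0310 and adjusted p 0.110) for Traf1 and 0.18 (SE 0.064, unadjusted p 0.0376 and adjusted p 0.122) for Traf2, so neither passed the threshold. After quantile normalization the value for Traf1 was 0.052.

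The calls of Tnfrsf4, Tnfrsf9 and Tnfrsf1b depended on the settings, while their direction stayed the same. Several settings could not have changed the direction. Filters and the variance trend leave the fold change as it is. Where the groups do not overlap, leaving out 1 library or changing the pseudocount cannot reverse it. The direction was free to change only under scaling, normalization, limma-voom and trend removal. Among 10 other settings, the adjusted p was under the threshold in 6 for Tnfrsf4 (range 0.0226 to 0.0937), in 6 for Tnfrsf9 (0.0208 to 0.0876) and in 7 for Tnfrsf1b (0.0312 to 0.0894). Quantile normalization ended all 3 calls and lowered the log2 fold change of Tnfrsf4 to 0.18, of Tnfrsf9 to 0.31 and of Tnfrsf1b to 0.18. Leaving out any 1 library ended all 3 calls, in fits that called at most 1 gene of the whole set in either direction. Without CTRL 1 the log2 fold changes were 0.30, 0.32 and 0.28 with adjusted p of 0.151, 0.142 and 0.155.

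The composition of the receptors was also compared. The summed FPKM of the 8 receptors was 1009 and 1049 in CTRL 1 and CTRL 2 and 1118 and 1123 in KO 1 and KO 2. Tnfrsf4 made up 28.6% and 27.7% of this sum in CTRL and 32.7% and 31.3% in KO, while Cd27 made up 26.8% and 26.3% in CTRL and 22.7% and 23.5% in KO. The share of Tnfrsf25 was 6.12% and 5.97% in CTRL and 4.29% and 4.67% in KO. Ordered by mean level, the 10 genes ran from Tnfrsf4 through Cd27, Tnfrsf18, Traf1 and Tnfrsf1b to Tnfrsf9 and Tnfrsf25, and then to Traf2, Fas and Tnfrsf1a. The libraries of neighbors in this order overlapped in CTRL for Tnfrsf9 with Tnfrsf25 and for Traf2 with Fas, and for no pair in KO. Tnfrsf9 and Tnfrsf25 were at like levels in CTRL (59.3 and 62.2 FPKM on average) and apart in KO (77.5 and 50.2 FPKM). The ratio of Tnfrsf4 to Tnfrsf25 was 4.67 and 4.64 in CTRL and 7.64 and 6.71 in KO. Tnfrsf4 and Tnfrsf25 had fold changes of opposite sign, so their ratio follows from those values and adds no evidence. A share also depends on the sum, which was higher in KO, and Cd27 itself had a log2 fold change of -0.08 (limma, adjusted p 0.362). These ratios and shares are given as descriptions, with no test.

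The other receptors of the superfamily were looked up from a list of 20 genes, of which 12 were tested. None passed the threshold (limma), compared with 9.75% of all genes tested. At an unadjusted p under 0.05, 1 was higher and 1 was lower, compared with 34.7% of all genes in either direction. The median log2 fold change of these 12 receptors was 0.04. The higher one was Tnfrsf8, which encodes CD30 and is the direct neighbor of Tnfrsf1b, 20266 bases away on the same strand of chromosome 4. It was at 7.43 and 8.21 FPKM in CTRL, against 10.1 and 11.3 FPKM in KO, with a log2 fold change of 0.41 and an adjusted p of 0.0558. The lower one was Tnfrsf22, which encodes a decoy receptor for TRAIL, at 7.93 and 7.64 FPKM in CTRL, against 5.45 and 6.38 FPKM in KO, with a log2 fold change of -0.35 and an adjusted p of 0.0782. It was named after its value was seen, and 15.8% of its 100-base stretches also occur in another gene, so its value is uncertain. The most abundant of these receptors were Tnfrsf14, encoding the herpesvirus entry mediator, at 25.5 to 27.0 FPKM (a log2 fold change of -0.03 with an adjusted p of 0.736), and Tnfrsf13b, encoding the receptor TACI, at 18.6 to 20.3 FPKM (0.06, adjusted p 0.537). None of these other receptors exceeded 27.0 FPKM in any library.

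The ligands came from a list of 18 genes, of which 11 were tested. None passed the threshold (limma), compared with 9.75% of all genes tested. At an unadjusted p under 0.05, 1 was higher and 2 were lower, compared with 34.7% of all genes in either direction. The median log2 fold change of these 11 ligands was -0.05. The higher one was Cd40lg (log2 fold change 0.24, adjusted p 0.0616), and the lower ones were Lta and Tnfsf13b (-0.66, adjusted p 0.0592). Cd40lg and Tnfsf13b were named after their values were seen, and Tnfsf13b was below 1 FPKM in both KO libraries. Ltb, encoding lymphotoxin beta, was the most abundant at 484 and 593 FPKM in CTRL and 553 and 551 FPKM in KO (a difference of 0.04 on the log2 scale, adjusted p 0.808). Lta, encoding lymphotoxin alpha, which also binds TNFR1 and TNFR2, was at 57.5 and 74.0 FPKM in CTRL, against 45.2 and 50.2 FPKM in KO (a difference of -0.45 on the log2 scale, adjusted p 0.0873). The ligands of the 8 receptors were read by role, and this was chosen after their values were seen. Tnf was at 26.3 FPKM in both CTRL libraries and at 24.7 and 23.1 FPKM in KO (a difference of -0.13 on the log2 scale, adjusted p 0.205). The ligands of OX40, GITR, DR3 and CD27, encoded by Tnfsf4, Tnfsf18, Tnfsf15 and Cd70, were each below 1 FPKM in all libraries, with a highest value of 0.789 FPKM for Cd70 in CTRL 2, and were not tested. Tnfsf9 was at 2.90 and 2.70 FPKM in CTRL, against 3.22 and 3.46 FPKM in KO, and Fasl was at 2.57 and 2.85 FPKM in CTRL, against 2.46 and 2.43 FPKM in KO. Neither passed the threshold, with adjusted p of 0.234 and 0.519.

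**Figure D3:**
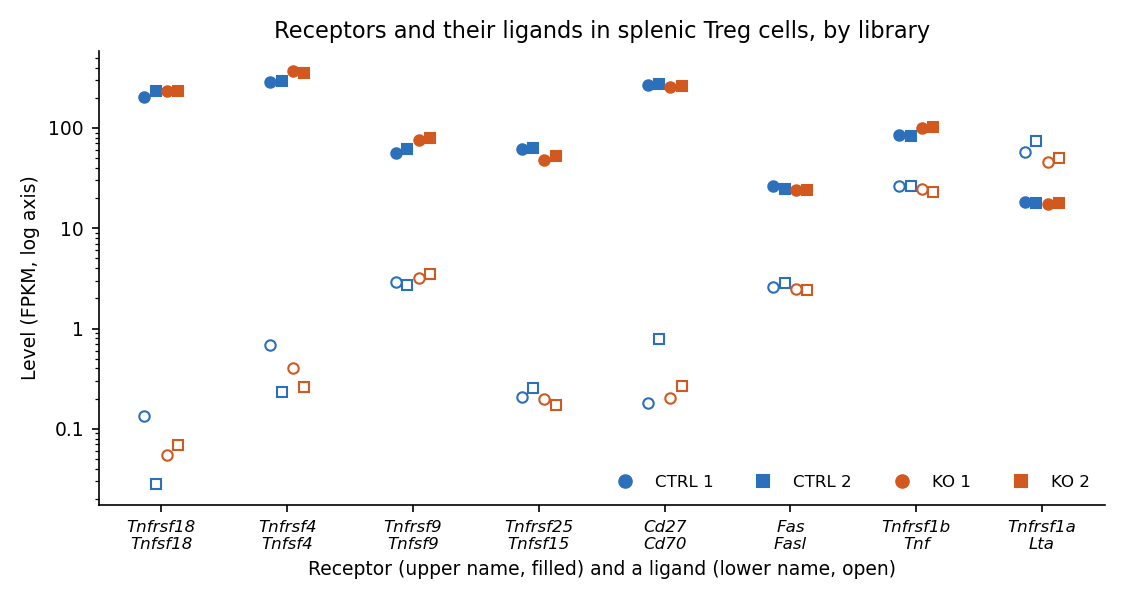
FPKM of each of the 8 receptors (filled) and of a ligand gene (open) in the 4 libraries, on a log axis, with 1 point per library. Tnf and Lta each bind both TNF receptors and are shown beside 1 receptor each. The receptors lie between 17.3 and 366 FPKM, while Tnfsf4, Tnfsf18, Tnfsf15 and Cd70 lie below 1 FPKM and only Tnf and Lta reach the range of the receptors.

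Downstream of the receptors, 32 signalling genes (other TRAFs, death domain adaptors, ubiquitin ligases and NF-kB genes) were all tested, and 1 passed the threshold. Ikbkb, which encodes the catalytic subunit IKK beta that phosphorylates NF-kB inhibitors, fell from 56.8 and 58.1 FPKM in CTRL to 45.6 and 47.4 FPKM in KO. Its log2 fold change was -0.30 (SE 0.055) with an adjusted p of 0.0420, which was under the threshold in 6 of 10 other settings and in none that left out a library. With the exon length trend removed, a setting chosen after seeing the data, it was -0.13 with an adjusted p of 0.166. At an unadjusted p under 0.05, 7 of the 32 genes were higher and 5 lower, a share near the 34.7% of all genes tested, and the median log2 fold change was 0.02. Nfkbia, a target and inhibitor of NF-kB, was at 443 and 526 FPKM in CTRL, against 842 and 650 FPKM in KO (a difference of 0.62 on the log2 scale, SE 0.15, adjusted p 0.0622). Tnfaip3, which encodes the ubiquitin-editing inhibitor A20, was the most abundant of the list, at 624 and 707 FPKM in CTRL, against 767 and 493 FPKM in KO (a difference of -0.11 on the log2 scale, adjusted p 0.750), so that the KO libraries lay on either side of CTRL. In all, 1 of the 55 pathway genes tested passed, or 1.82%, compared with 9.75% of all genes tested.

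**Figure D4:**
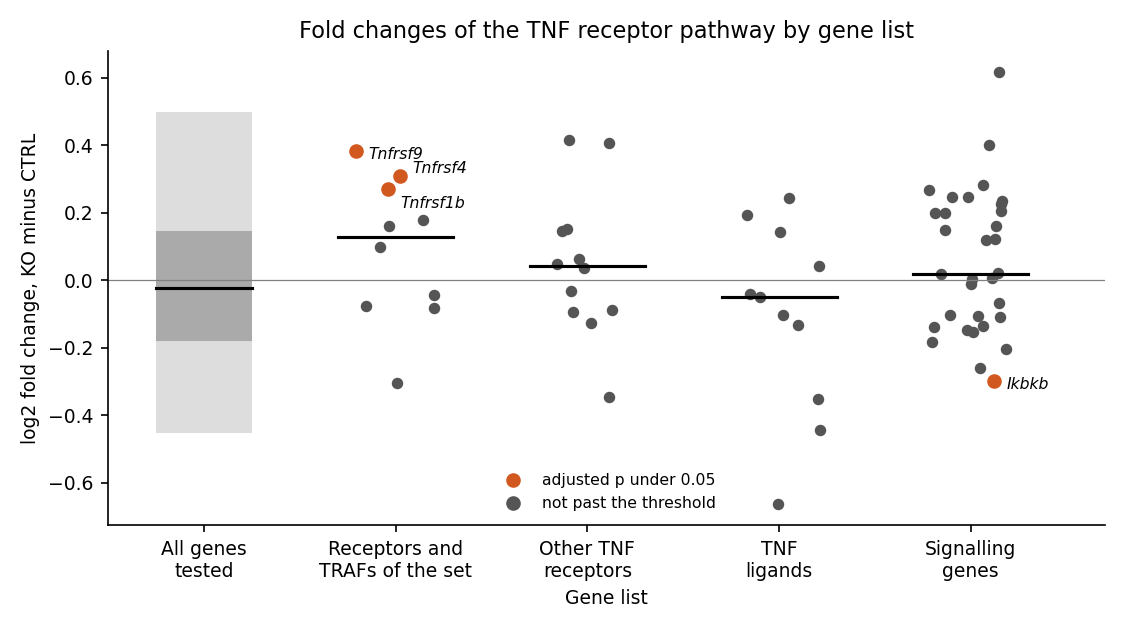
Log2 fold changes (KO minus CTRL, log2(FPKM + 1) scale) of the 10 genes, the other TNF receptors, the TNF ligands and the signalling genes, with 1 point per tested gene and a line at the median of each list (0.13, 0.04, -0.05 and 0.02). The dark and light bands hold the middle 50% and 90% of all 11399 genes tested, orange points are past the adjusted threshold, and Ikbkb is the only one outside the 10 genes.

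The 10 genes differed in structure as well. Their exon length ran from 1365 bases for Tnfrsf4 to 8819 bases for Traf1, compared with a median of 4238 bases over all genes tested. Over 11397 genes, which are not independent replicates, the fold change had a Spearman correlation of -0.18 with exon length and of 0.23 with GC content. With the exon length trend removed, which was chosen after seeing the data, the log2 fold change was 0.25 for Tnfrsf4, 0.35 for Tnfrsf9, 0.27 for Tnfrsf1b and -0.35 for Tnfrsf25. In that fit Tnfrsf1b and Tnfrsf25 passed the threshold, with adjusted p of 0.0476 and 0.0460, and Tnfrsf4 and Tnfrsf9 did not, with adjusted p of 0.0631 and 0.0502.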

How the data were processed

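RNA-seq of splenic Treg cells (2 CTRL and 2 KO libraries, approximately 1000000 cells each, oligo(dT) enrichment, 150 bp read pairs) was used. Per the labels and the methods, the authors checked reads with FastQC, mapped them to mm10 (GRCm38) with HISAT2 (2.2.1) and counted them per gene with featureCounts (2.0.1). edgeR (3.34.0) was their own test. The deposited values were FPKM for 24087 genes, of which 4199 were at 0 in all libraries. The annotation version and the use of strand were not given in the sources used here. Control columns named WT were read as the CTRL libraries with the same number.

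For all 19888 genes above 0, FPKM values were whole multiples of a common step (within 0.02 of a whole number), which gave lower bounds of the reads, at least 1304 for each of the 10 genes in each library. limma (3.58.1, R 4.3.3; lmFit, eBayes with an intensity trend) was run on log2(FPKM + 1) for the 11399 genes with at least 1 FPKM in at least 2 libraries, with two-sided tests. The median standard error was 0.087. The values were not counts, so no count test was the main test, and limma-voom on the recovered reads was an alternative. Because these reads are lower bounds, the weight that voom gave to some genes may be wrong. In CTRL 1, Tnfrsf8 entered with 48 reads at 7.43 FPKM and Tnfrsf10b with 580 reads at 5.56 FPKM. Positions, exon lengths and overlaps came from GENCODE vM21 on GRCm38, which held 24021 of the genes, and promoter windows from RefSeq. Other steps were run in Python (3.11.15) with numpy (2.4.6), pandas (2.3.3) and matplotlib (3.10.9). The procedure was tested on simulated data.

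The 10 genes and the lists were chosen with earlier results of these data known. Named in the text were all 10 genes, pathway genes past the threshold, the 2 most abundant genes of each pathway list, neighbors of the same superfamily, Setd2 and the cell markers, with exceptions stated. Alternatives were 9 planned settings, leaving out each library, and 2 settings added after seeing the data.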

Additional observations from a re-analysis of the deposited data

How the results depend on the processing

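Each group had 2 libraries, and each of the 10 genes had at least 1304 recovered reads in each library. The count of the 10 genes past the threshold was 3, that of pathway genes 1, and 581 genes were higher and 530 lower overall. With all genes above 0 tested, limma called 0 of the 10 genes, 0 pathway genes, and 0 higher and 0 lower genes, although 6 of the 10 genes, 19 pathway genes, and 2212 higher and 2251 lower genes reached p under 0.05 before adjustment. Without the variance trend, 0 of the 10 genes passed and 315 genes were higher. In that fit 4 of the 10 genes had an unadjusted p under 0.05, as did 1735 higher and 2103 lower genes of all tested. Tnfsf13b was then the pathway gene called, as lower in KO. Its levels were near the filter of 1 FPKM, at 1.17 and 1.44 FPKM in CTRL and 0.567 and 0.349 FPKM in KO. Quantile normalization left 1 of the 10 genes, Tnfrsf25. With the filter at a group mean over 5 FPKM, 3 pathway genes passed (Tnfrsf8, Ikbkb and Nfkbia). With median-ratio scaling 0 pathway genes passed. There, 15 pathway genes had an unadjusted p under 0.05, as did 1951 higher and 1856 lower genes of all tested. limma-voom on recovered reads called 878 higher and 1008 lower genes and 4 pathway genes (Tnfsf13b, Birc3, Ikbkb and Nfkbia). Removal of the exon length trend, added after seeing the data, called 321 lower genes and 0 pathway genes. In that fit 14 pathway genes had an unadjusted p under 0.05, as did 2000 higher and 1727 lower genes of all tested. Removal of the GC trend, also added, called 3 pathway genes (Cd40lg, Birc3 and Ikbkb). In the 4 fits without 1 library, fewer samples remained and the lone library was assumed to vary like the other group. Almost no gene passed the threshold in them, and none of the 10 genes or the pathway genes did. Across these fits the log2 fold change ran from 0.28 to 0.34 for Tnfrsf4, from 0.32 to 0.45 for Tnfrsf9 and from 0.24 to 0.30 for Tnfrsf1b. Tnfrsf18 reversed to -0.027 after quantile normalization, and its fold change ran from -0.0019 (without CTRL replicate 1) to 0.20 (without CTRL replicate 2) across the fits without 1 library. The cause of these changes was not tested. The other 9 genes kept their direction in each setting. Their groups did not overlap, so leaving out 1 library could not have reversed it, and filters and the variance trend do not alter the fold change.

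The labels tie no replicate number to a litter or a day, so whether libraries with the same number were paired is not known. The summed myeloid, B cell, plasma cell and erythroid markers were each higher in CTRL 1 than in CTRL 2 and in KO 1 than in KO 2. In a fit with replicate block, limma called 968 higher and 805 lower genes, 4 of the 10 genes passed (Tnfrsf25 in addition), and 6 pathway genes passed (Tnfrsf8, Lta, Tnfsf13b, Ikbkb, Nfkbia and Nfkb2). Across genes, the deviations of CTRL 1 and KO 1 from their group means were correlated with Pearson r of 0.342 and Spearman rho of 0.055.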

Other observations

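Some NF-kB genes of the signalling list, picked after their values were seen, differed widely between the KO libraries. Rel was at 41.7 FPKM in KO 1 and 24.7 FPKM in KO 2, compared with 26.0 and 28.8 FPKM in CTRL, and Nfkb2 was at 74.2 and 57.8 FPKM in KO, compared with 49.4 FPKM in both CTRL libraries. The difference between KO 1 and KO 2 on the log2 scale was 0.73 for Rel, 0.64 for Tnfaip3, 0.37 for Nfkbia and 0.36 for Nfkb2, but 0.042 for Nfkb1. Over all 32 signalling genes its median was 0.084, compared with 0.054 over the 8 receptors and 2 TRAF adaptors and 0.091 over all genes tested.

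Further genes of the signalling list were chosen after their values were seen. Traf3, an inhibitor of the noncanonical NF-kB pathway, stood at 24.0 and 24.6 FPKM in CTRL, against 21.8 FPKM in both KO libraries. The difference of Traf3 was -0.15 on the log2 scale (limma, adjusted p 0.146). Casp8, the caspase recruited by Fas, was at 88.5 and 90.9 FPKM in CTRL, against 69.7 and 80.1 FPKM in KO (a difference of -0.26 on the log2 scale, adjusted p 0.0944). Birc3, an inhibitor of apoptosis bound by TRAF2, was at 58.9 and 60.1 FPKM in CTRL, against 75.0 and 68.7 FPKM in KO (a difference of 0.27 on the log2 scale, adjusted p 0.0619). None of these 3 genes passed the threshold in the limma fit. The death domain adaptors Fadd and Tradd did not pass it either, with log2 fold changes of 0.20 and 0.16.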
